A study of Mus musculus with 4 samples.

Results

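The 6 genes described here encode parts of the splicing machinery and factors that handle messenger RNA: Snrpb, Sf3b3, Prpf3, Hnrnpk, Prpf39 and Ddx39b. They were chosen because each had a peak of HA-tagged human WDR5 (HA-hWDR5) at the earlier rescue time, T12h, and they are 6 of 21887 protein-coding genes in the RefSeq annotation of GRCm38.p6, the build mm10. A peak was counted for a gene when its summit, the position of most tags, lay inside the gene or within 1 kb of either of its ends. The peak at T12h is thus what chose the genes, and its values are given as a description. The mouse embryonic stem cells carried a GFP reporter in Rx (Rx:GFP KI), were knocked out for Wdr5 (Wdr5 KO) and held a human WDR5 that doxycycline switches on. They were grown as embryoid bodies, cell aggregates that differentiate, by the SFEBq method in medium with 5% KSR. Matrigel at 2% was added on day 1, and the series' design text places the profiles at day 6. Doxycycline was given at T12h in one group and at T48h in the other, and from which event these hours count is not given in the sources used here. Chromatin of both groups was crosslinked with disuccinimidyl glutarate (2 µM, 30 min) and with 1% paraformaldehyde (10 min). Both groups lacked the mouse gene, and a group without rescue was not analysed here. Each rescue time had 1 ChIP library, made with an antibody to the HA tag, and 1 input library of genomic DNA, so no difference between times has a replicate check and no p-value is given.

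WDR5 is a WD-repeat protein that joins MLL-type histone methyltransferases and other chromatin complexes, and it is known to bind near the starts of highly expressed housekeeping genes. Splicing removes introns from precursor RNA. The U1 particle recognises the start of an intron, the U2 particle its branch point, and the U4/U6.U5 particle then joins to form the active spliceosome. Proteins of the hnRNP family coat the precursor RNA, and RNA helicases of the DEAD-box family, with the export machinery, hand the spliced RNA on to the nuclear pore.

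After removal of duplicates MACS kept 55539917 ChIP tags at T12h and 67116740 at T48h. The authors called 1197 peaks at T12h and 660 at T48h, with median tag counts of 36 and 32.5. The background share of protein-coding genes with a peak by the same rule was 4.25% at T12h (930 of 21887) and 1.69% at T48h (369 of 21887). These values describe each peak. The tag count is the number of tags in the region, the fold is the ratio of the signal to the local background estimated by MACS, the score is 10 times the negative log10 of the p-value, and the width is in bp. All of these are the authors' own. A call needed a score of 50, and the lowest score among the 6 genes was 97.44.

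All 6 genes had a T12h peak, as the rule required, and Ddx39b, Snrpb, Sf3b3 and Prpf3 had a T48h peak too. Of all 930 protein-coding genes with a T12h peak, 25.4% also had one at T48h. The T48h state of several of these genes was known when they were chosen, so nothing is read from 4 of 6 against that share. The genes fell into 2 sets by level. The 4 genes found at both times had T12h folds from 19.4 to 44.64, and Hnrnpk and Prpf39, found at T12h alone, had folds of 8.78 and 7.24.

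**Figure D1:**
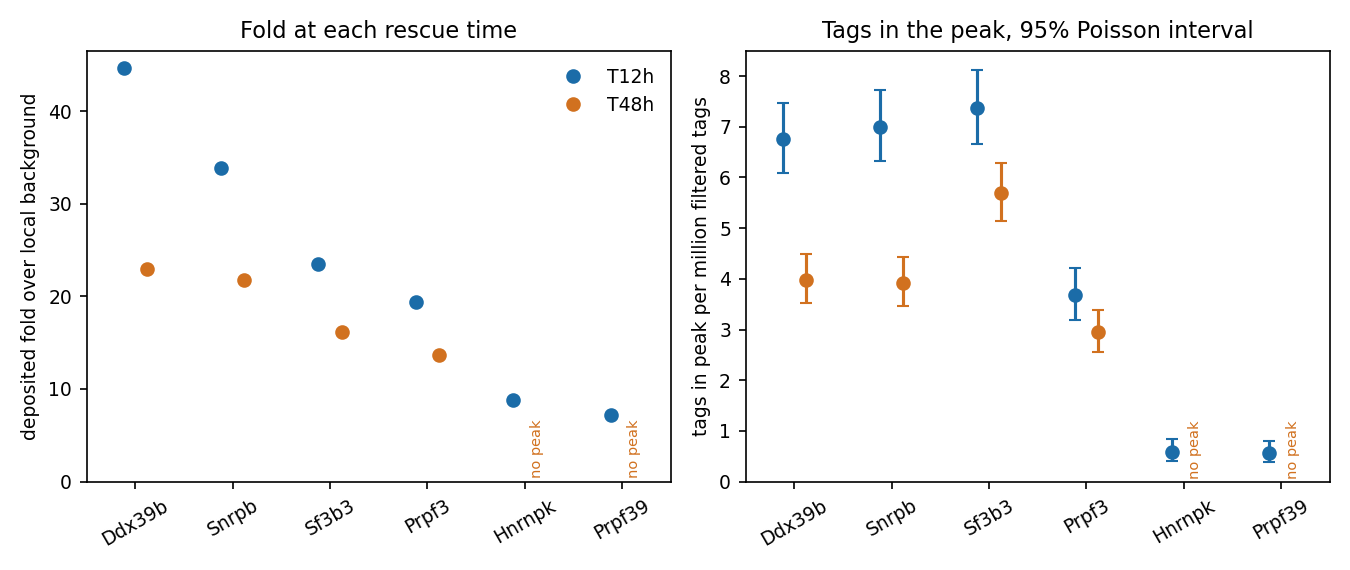
The left panel plots the deposited fold of each gene's peak at T12h and T48h, and the right panel the tags in the peak per 1000000 filtered ChIP tags with exact Poisson 95% intervals, which cover counting error only. Ddx39b, Snrpb, Sf3b3 and Prpf3 have points at both times with the T12h point higher, and Hnrnpk and Prpf39 have a T12h point alone.

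Ddx39b encodes a DEAD-box helicase that acts in spliceosome assembly and in the export of spliced RNA. Its T12h peak (chromosome 17, 35241559 to 35242576, 1018 bp) held 375 tags with a fold of 44.64 and a score of 2823.75, place 8 of 1197 by score. Its T48h peak (35241506 to 35242502, 997 bp) held 267 tags with a fold of 22.94 and a score of 1364.31, place 18 of 660. It was the highest of the 6 genes by fold and by score at both times. The summits lay 245 bp and 303 bp downstream of the start site, inside the gene (chromosome 17, 35241746 to 35253707). A snoRNA gene, LOC115488830, lies 687 bp from the T12h summit and is not overlapped by either peak. The deposited false discovery rate of the T12h peak was 12.5%, the highest among the 6 genes. MACS takes that rate from calls with ChIP and control exchanged. At T12h it was 3.23% for Snrpb, place 31 by score, and 2.39% for Hnrnpk, place 418. A high rate among these genes thus does not mark a low score.

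Snrpb encodes the B and B' proteins of the Sm core, the ring around each spliceosomal small nuclear RNA. Its T12h peak (chromosome 2, 130178562 to 130179737, 1176 bp) held 389 tags with a fold of 33.87 and a score of 2492.79, place 31. The T48h peak (130178666 to 130179709, 1044 bp) held 263 tags with a fold of 21.78 and a score of 1262.36, place 33. The T48h peak lay wholly within the T12h peak, and the summits were 22 bp apart, the closest pair of the 4. Both summits were inside the gene (130171636 to 130179382), 215 bp and 237 bp from its boundary with the higher coordinate. No start site was matched for Snrpb, so its summits were not placed relative to one. No other annotated gene was within 1 kb of either summit.

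Sf3b3 encodes a subunit of SF3b, the part of the U2 particle that holds the branch point. Its T12h peak (chromosome 8, 110846153 to 110847126, 974 bp) held 409 tags, the most of the 6 genes at that time, with a fold of 23.54 and a score of 2326.26, place 39. The T48h peak (110845873 to 110847257, 1385 bp) held 382 tags with a fold of 16.11 and a score of 1276.83, place 30. The T48h region was the wider and contained the whole T12h region, so its tags cover more sequence. Sf3b3 (110810491 to 110846806) overlaps the start of Cog4 (110846600 to 110882234), a gene for a Golgi trafficking subunit that is read in the opposite direction. The T12h summit lay 154 bp downstream of the Sf3b3 start site and 49 bp downstream of one Cog4 start site, so these peaks cannot be given to one gene of the pair. Chromosome 8 carried 130 T12h peaks, and no other T12h summit lay within 500 kb of that of Sf3b3.

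Prpf3 encodes a protein of the U4/U6 particle that is needed to build the U4/U6.U5 particle. Its T12h peak (chromosome 3, 95855751 to 95856464, 714 bp) held 204 tags with a fold of 19.4 and a score of 1115.48, place 81. The T48h peak (95855746 to 95856645, 900 bp) held 198 tags with a fold of 13.65 and a score of 721.38, place 71. It was the lowest of the 4 genes found at both times by every one of these values. Its summits, unlike those of the other 5 genes, lay outside the gene (95830124 to 95855885), 104 bp upstream of the start site at T12h and 255 bp upstream at T48h. The distance of 151 bp between the summits was the largest of the 4 pairs.

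Hnrnpk encodes an hnRNP protein that binds C-rich RNA through KH domains. Its T12h peak (chromosome 13, 58402587 to 58402908, 322 bp) held 33 tags with a fold of 8.78 and a score of 106.95, place 418 of 1197. The summit lay inside the gene (58391132 to 58403343), 563 bp from its boundary with the higher coordinate. It was 663 bp upstream of the 1 start site that the promoter table gives for Hnrnpk. It also lay inside Rmi1 (58402248 to 58411149), a gene for a subunit of a DNA dissolvase complex that is read in the opposite direction, 183 bp downstream of one of its start sites. The peak is thus nearer to a start site of Rmi1 than to that of Hnrnpk. At T48h no peak was called, and the nearest T48h summit was 1014 kb from the gene.

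Prpf39 encodes a factor of the U1 particle. Its T12h peak (chromosome 12, 65036306 to 65036649, 344 bp) held 31 tags with a fold of 7.24 and a score of 97.44, place 452, the lowest of the 6 genes. The summit was 210 bp inside the gene (65036334 to 65063386), downstream of its start site, with no other gene within 1 kb. At T48h no peak was called, and the nearest T48h summit was 3965 kb away. The peak files list called regions alone, so the T48h tag counts at Hnrnpk and Prpf39 are not known, and a missing call does not show that tags were absent. Of the 35 T12h peaks with a score from that of Prpf39 to that of Hnrnpk, 1 (2.86%) overlapped a T48h peak, and of the 81 with a score of at least that of Prpf3, all 81 did. Over all T12h peaks the share was 18.8%. Prpf39 and Hnrnpk are counted among the 35, and Ddx39b, Snrpb, Sf3b3 and Prpf3 among the 81. Part of each share was thus known beforehand, and why the T48h calls are missing was not tested.

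**Figure D2:**
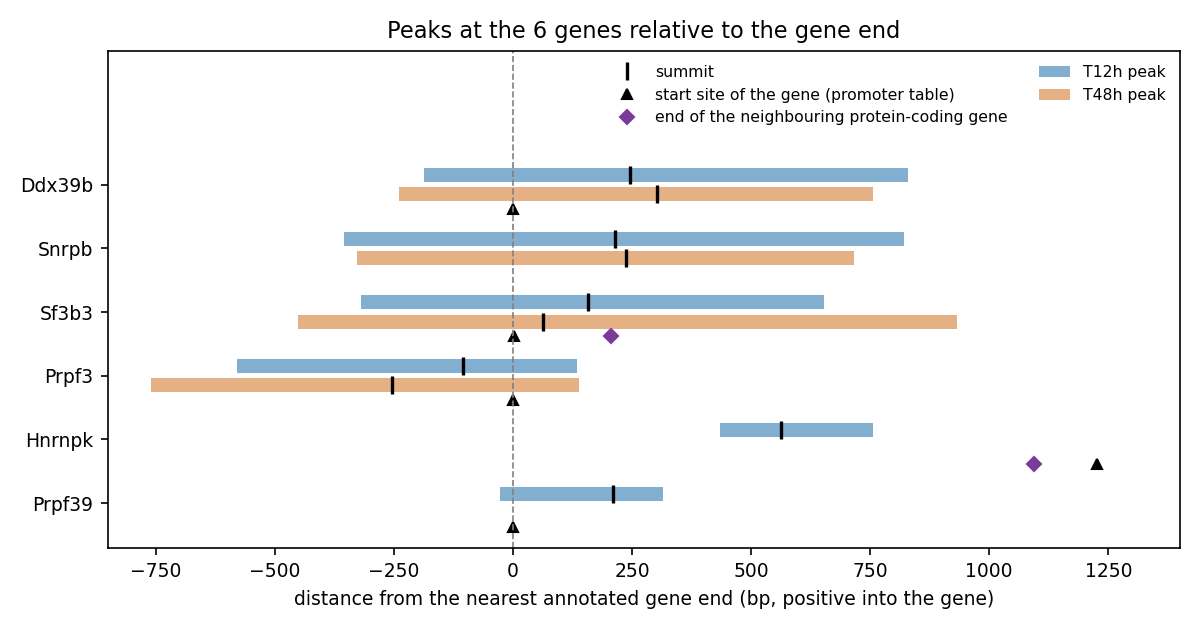
Bars show the extent of each peak at T12h and T48h in bp from the nearest annotated end of the gene, positive into the gene, with a tick at each summit, a triangle at the gene's start site in the promoter table and a diamond at the end of a neighbouring protein-coding gene. The Prpf3 summits lie outside the gene and the other summits inside it, and the Hnrnpk peak lies away from both the gene end and the start site shown.

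Set side by side, the fold was higher at T12h in each of the 4 genes found at both times. The ratio of the T12h fold to the T48h fold was 1.95 for Ddx39b, 1.56 for Snrpb, 1.46 for Sf3b3 and 1.42 for Prpf3, with a median of 1.51. Most other sites did the same. Among the 220 other overlapping pairs the fold was higher at T12h in 188 (85.5%), with a median ratio of 1.47 and quartiles of 1.23 and 1.84. Snrpb, Sf3b3 and Prpf3 fell between those quartiles, and Ddx39b lay above the upper one.

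The tag counts were also put on a common scale, as tags in the peak per 1000000 filtered ChIP tags, with exact Poisson 95% intervals that cover counting error only. Ddx39b had 6.75 (6.09 to 7.47) at T12h and 3.98 (3.52 to 4.49) at T48h. Snrpb had 7.0 (6.33 to 7.74) and 3.92 (3.46 to 4.42). The intervals of the times did not overlap for either gene. Sf3b3 had 7.36 (6.67 to 8.11) at T12h and 5.69 (5.14 to 6.29) at T48h, again without overlap. Prpf3 had 3.67 (3.19 to 4.21) and 2.95 (2.55 to 3.39), and its intervals overlapped. The ratio of T12h to T48h was 1.79 for Snrpb (1.52 to 2.1), 1.70 for Ddx39b (1.45 to 1.99), 1.29 for Sf3b3 (1.12 to 1.49) and 1.25 for Prpf3 (1.02 to 1.52), with exact binomial 95% intervals for the counts. The order of the genes by this ratio differed from the order by fold, with Snrpb in first place. Per kb of peak the ratios drew together, from 1.57 for Prpf3 to 1.84 for Sf3b3, whose T12h peak was the narrower of its pair. Among the 220 other pairs the median ratio of depth-scaled tags was 1.61, with quartiles of 1.30 and 1.99. On this scale Ddx39b and Snrpb lay between the quartiles, and Sf3b3 and Prpf3 lay just below the lower one.

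**Figure D3:**
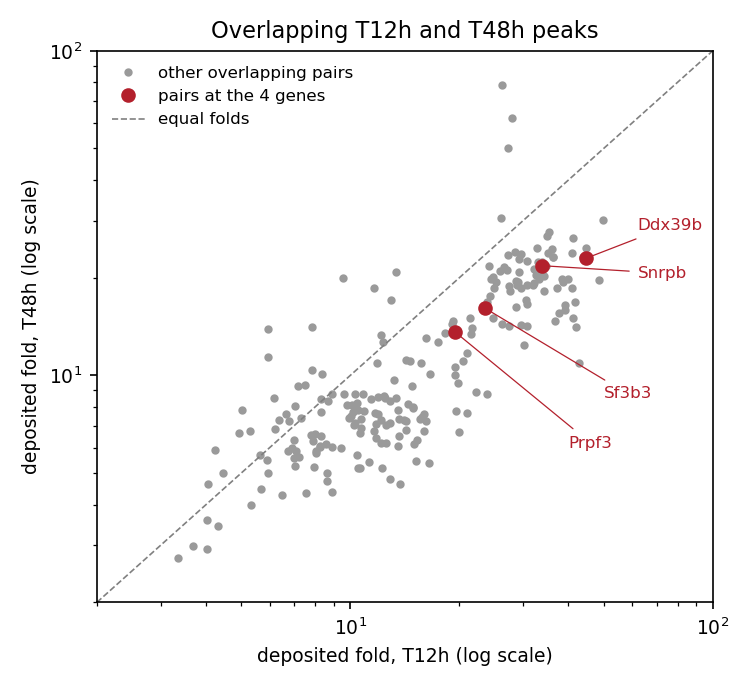
Each point is an overlapping T12h and T48h peak pair, with the deposited fold at T12h on the horizontal log axis and at T48h on the vertical log axis. The 4 genes lie below the line of equal folds, as do 188 of the 220 other pairs.

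By the distance between log2 folds over the 2 libraries, the genes most like Snrpb among 226 compared were the ribosomal protein genes Rps3 (folds 34.6 at T12h and 21.7 at T48h) and Rpl26 (33.87 and 22.33). Those most like Ddx39b were Ppp2r2a (43.74 and 23.16) and Iqcg (44.64 and 24.7). Sf3b3 was nearest to Angptl6 (24.73 and 15.08) and Rpl7 (24.35 and 17.54), and Prpf3 to Rpl36 (19.03 and 14.4) and Emc4 (21.55 and 13.42). The measure rests on 2 values per gene. Genes in range of the same peak can have the same folds. Whether the peaks of the genes named as most alike were also in range of other genes is not reported here. These peaks are thus not given to the named genes alone.

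The promoter sequences show the DNA around the start sites near these peaks. The peaks run beyond these windows, and their DNA outside the windows was not examined here. RefSeq promoters, 250 bases before to 50 after a start site in GRCm38.p6, were matched for 5 of the 6 genes, and Snrpb had no match. Those printed are for the genes whose T12h peak covered part of the promoter: Ddx39b (chr17:35241496-35241795, plus strand), Sf3b3 (chr8:110846754-110847053, minus strand), Prpf3 (chr3:95855836-95856135, minus strand) and Prpf39 (chr12:65036084-65036383, plus strand). Prpf3 had 2 entries, and the one whose start site was nearer to the T12h summit is shown. Capitals mark matches to any of 8 short motifs on either strand: CACGTG (the E-box), CCGGAAG (an ETS site), GGGCGG (a GC box), TATAAA (the TATA box), CCAAT (the NF-Y box), ATGGCGG (a YY1 core), TGACG (a CRE core) and GCATGCGC (an NRF1 core). In Prpf39 the E-box and a CRE core overlap in 1 run of capitals.
Ddx39b: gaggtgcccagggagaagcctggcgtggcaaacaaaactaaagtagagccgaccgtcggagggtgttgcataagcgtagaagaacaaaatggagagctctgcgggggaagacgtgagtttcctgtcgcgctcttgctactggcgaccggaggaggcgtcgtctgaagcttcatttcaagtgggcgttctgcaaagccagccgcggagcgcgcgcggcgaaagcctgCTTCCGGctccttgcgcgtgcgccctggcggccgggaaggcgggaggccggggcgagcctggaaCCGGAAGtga
Sf3b3: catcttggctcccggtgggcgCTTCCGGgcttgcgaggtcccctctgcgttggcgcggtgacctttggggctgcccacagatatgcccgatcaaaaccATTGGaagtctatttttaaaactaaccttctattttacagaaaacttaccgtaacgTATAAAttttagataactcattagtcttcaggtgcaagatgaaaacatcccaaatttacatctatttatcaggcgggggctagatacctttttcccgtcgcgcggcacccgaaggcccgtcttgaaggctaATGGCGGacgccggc
Prpf3: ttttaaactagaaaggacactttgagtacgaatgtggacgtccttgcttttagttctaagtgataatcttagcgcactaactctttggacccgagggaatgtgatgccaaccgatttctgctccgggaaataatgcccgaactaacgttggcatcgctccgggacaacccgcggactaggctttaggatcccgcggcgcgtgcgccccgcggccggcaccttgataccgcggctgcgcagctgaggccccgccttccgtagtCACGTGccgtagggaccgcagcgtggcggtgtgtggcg
Prpf39: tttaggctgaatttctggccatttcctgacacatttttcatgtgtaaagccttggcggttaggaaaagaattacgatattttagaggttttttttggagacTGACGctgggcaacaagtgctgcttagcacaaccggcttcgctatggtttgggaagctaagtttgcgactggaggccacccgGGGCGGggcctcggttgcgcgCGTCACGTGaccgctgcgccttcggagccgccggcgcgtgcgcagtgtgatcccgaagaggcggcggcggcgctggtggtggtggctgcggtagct

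No motif was present in more than 2 of the 5 promoters. CCGGAAG was in those of Ddx39b and Sf3b3, against 8.86% of the 32851 promoters in the table, and all 3 matches lay inside the peaks of both times. Ddx39b carried it on both strands, 24 bases upstream of the start site and 40 bases after it. CACGTG was in those of Prpf3, 12 bases after the start site and inside both peaks, and Prpf39, 43 bases upstream and outside its T12h peak, against 7.15% of all promoters. ATGGCGG was in Sf3b3, 35 bases after the start site and inside both peaks, and in Hnrnpk outside the peak, against 4.05%. TGACG was in Hnrnpk and Prpf39 (20.8% of all promoters), CCAAT in Sf3b3 and Hnrnpk (37.4%), TATAAA in Sf3b3 (13.6%), GGGCGG in Prpf39 (35.7%) and GCATGCGC in none of the 5 (2.71%). A match is a stretch of letters and not a binding site. The peaks of both times covered all 300 bases at Sf3b3 and Prpf3, and at Ddx39b 237 at T12h and 290 at T48h. A match in these promoters would thus mostly fall inside a peak wherever it lay. The Ddx39b summits, 245 bp and 303 bp downstream of the start site, lay outside the promoter window.

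The promoters differed in how much of them a peak covered. The T12h peaks covered all 300 bases at Sf3b3 and Prpf3, 237 at Ddx39b, 78 at Prpf39 and 0 at Hnrnpk. GC content was 57.7% at Prpf39, 58.0% at Prpf3, 63.3% at Ddx39b and 70.7% at Hnrnpk, against a median of 52.7% over all promoters, and Sf3b3 was below that median. The number of CG dinucleotides was 20 at Sf3b3, 27 at Prpf39, 31 at Prpf3 and Ddx39b and 40 at Hnrnpk, against a median of 7 and an upper quartile of 20 over all promoters. Ddx39b, Sf3b3 and Prpf39 had summits downstream of their start site at T12h. Of the 550 T12h peaks with a summit within 1 kb of a start site in the table, 64.0% were downstream of the nearest one, with a median of 77.5 bp. At T48h 67.0% of 188 were, with a median of 122.5 bp.

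The wider RNA-processing machinery was described with 13 lists by role, holding 207 genes with the 6 included. At T12h 20 of the 207 had a peak and at T48h 11 did, and 8 genes had one at both times. Without the 6 genes, which had been chosen by their T12h peak, 14 of 201 (6.97%, exact binomial 95% interval 3.86 to 11.4) had one at T12h, against 4.25% of all protein-coding genes. At T48h 7 of 201 (3.48%, 1.41 to 7.04) had one, against 1.69%. Both intervals, which cover counting error only and treat genes as independent, include the background. They did not when a summit had to lie within 1 kb of a gene end: 13 of 201 (6.47%, 3.49 to 10.8) then had a T12h peak against 2.93% of all protein-coding genes, and 6 of 201 (2.99%, 1.10 to 6.38) a T48h peak against 1.06%. Whether the intervals include the background thus rests on whether peaks deep inside genes count, and no excess is claimed. The median fold of those with a peak was 7.42 at T12h and 7.02 at T48h, against 7.31 and 7.66 over all peaks.

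In the exon junction and export group 5 of 25 genes had a peak at T12h and 4 of 25 at T48h, against 4.25% and 1.69% of all protein-coding genes. Without Ddx39b, which was chosen for its T12h peak, these were 4 of 24 (16.7%, exact binomial 95% interval 4.74 to 37.4) and 3 of 24 (12.5%, 2.66 to 32.4). The group was singled out among the 13 lists after its count was seen, so its shares and intervals are not read against the background. By share the LSm list was higher at T12h, with 2 of 8. Rnps1, which encodes an exon junction regulator, had a fold of 34.31 (344 tags) at T12h and 18.15 (258 tags) at T48h. Snrpb had 33.87 (389 tags) and 21.78 (263 tags). Rbm8a, which encodes a core subunit of the exon junction complex, had 8.7 (130 tags) and 8.35 (86 tags). Ncbp1, for the large subunit of the cap-binding complex, had 10.5 (43 tags) and 5.2 (26 tags), and its peaks also lay within range of Tstd2. The export adaptor gene Alyref had 6.53 (24 tags) at T12h alone, from a peak also in range of Anapc11.

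Among the snRNP groups, Snrpb was the 1 gene of 8 in the Sm core with a peak, and Sf3b3 the 1 of 20 in the U2 group, each at both times. In the U4/U6.U5 group Prpf3 and Eftud2, the gene for the U5 GTPase, were 2 of 18 at both times. Eftud2 had folds of 10.27 (63 tags) and 7.02 (47 tags), and its peaks were also in range of Ccdc103. In the U1 group Prpf39 and Tial1 (7.55, 43 tags) were 2 of 11 at T12h and none was at T48h. Of 8 LSm genes, Lsm1 (6.53, 30 tags, also in range of Bag4) and Lsm6 (4.94, 56 tags) had a T12h peak and none a T48h peak. The shares over all protein-coding genes were 4.25% at T12h and 1.69% at T48h, and the lists are too small for their counts to be read against these.

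Of 26 hnRNP genes, 3 had a T12h peak and none a T48h peak. They were Hnrnpk, Hnrnpa3 with a pair of small peaks (7.28 and 6.11, 24 and 23 tags), and Ptbp1 (6.29, 16 tags), which encodes a splicing repressor. Of 16 SR protein genes Srsf3 (5.25, 34 tags) had one at T12h. Among 8 SR kinase genes, Srpk2 had a T12h peak 8272 bp inside the gene (7.79, 38 tags) and Clk4 a T48h peak (7.36, 52 tags, also in range of BC049762). Of 25 genes of the PRP19 and catalytic group, Ppil1 had one at T12h (5.63, 24 tags) and Cdc5l at T48h (5.64, 29 tags). Of 14 snRNP assembly genes, Clns1a had one at T12h (10.3, 85 tags) and Smn1 at T48h (5.78, 21 tags, 1544 bp inside the gene). None of the 8 minor spliceosome genes and none of the 20 genes for 3' end formation had a peak at either time. Over all protein-coding genes the shares were 4.25% at T12h and 1.69% at T48h. At such shares few or no peaks are likely in lists of this size, so nothing is read from these counts.

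**Figure D4:**
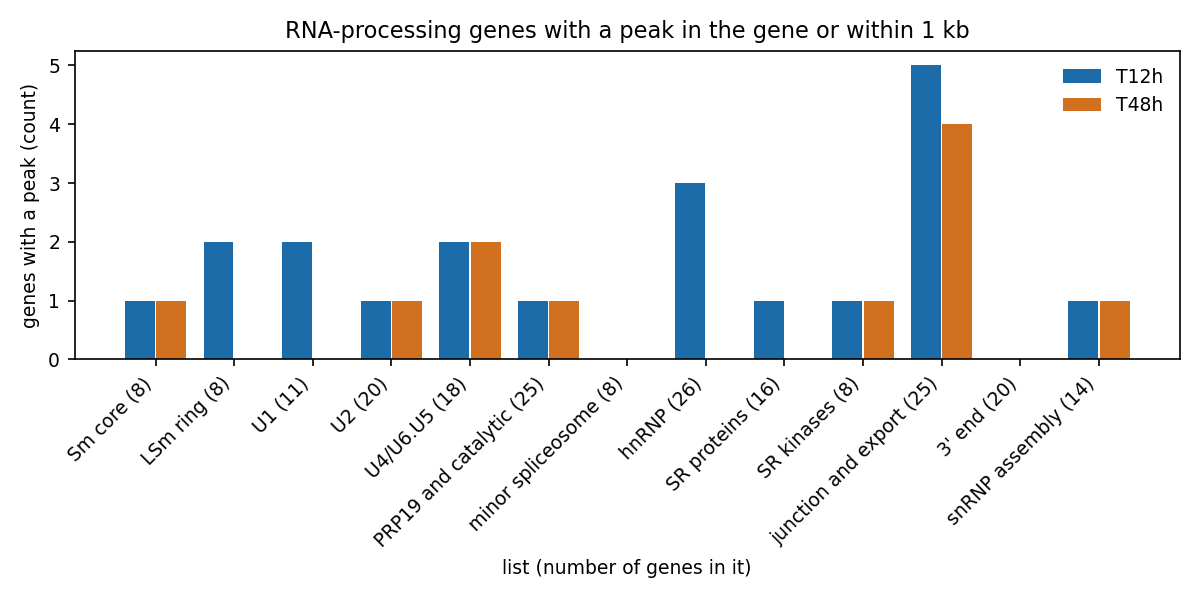
Bars give the number of genes in each RNA-processing list with a peak at T12h and at T48h, with the size of the list in parentheses on the horizontal axis. The junction and export list has the tallest bars, with 5 genes at T12h and 4 at T48h. Over all protein-coding genes 4.25% had a peak at T12h and 1.69% at T48h.

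For 6 of the 20 genes at T12h and 4 of the 11 at T48h, the peak was also in range of another protein-coding gene, so it cannot be given to one of them. Among list genes without a peak, the nearest T12h summits beyond 1 kb were 2774 bp from Gemin7 (fold 7.94), 9792 bp from Lsm2 (10.37) and 13103 bp from Prpf19 (8.6). The nearest T48h summits were 15412 bp from Hnrnph2 (16.25), 15562 bp from Cwc25 (30.65) and 22661 bp from Lsm2 (4.62).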

How the data were processed

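The deposited tables hold MACS 1.4.2 peak calls, 1 ChIP library against 1 control library at each time, with no pooling, per the file headers. Settings were a p limit of 1e-05, 1 tag per position, a 300 bp band and a genome size of 2.70e+09, with the larger dataset scaled to the smaller. The submitters' processing notes name mm10, Bowtie2, SAMtools 1.5, HOMER 4.9.1 and deepTools. The authors deposited for each peak a tag count (not normalised), a fold ratio over the local background, a score of 10 times the negative log10 of the p-value, and a false discovery rate in percent. Fold, score and rate were not recomputed.

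Peaks were assigned to the 49943 RefSeq genes on chromosomes 1 to 19, X and Y with Python 3.11.15, pandas 2.3.3, numpy 2.4.6 and scipy 1.17.1, and drawn with matplotlib 3.10.9. Peaks were shared when they overlapped by at least 1 bp. On simulated peaks, 200 of 200 assignments and 200 of 200 overlaps came out as built. With 1 library per time no test was run. The rule for named genes took the 6 genes, list genes with a peak at either time, genes within 1 kb of a summit of the 6 genes, up to 3 list genes at each time with the nearest summit beyond 1 kb, and the 2 genes most like each gene found at both times. The genes, lists and motifs were chosen with earlier results of these data known. Alternatives changed the distance, the score limit, the gene counted, the overlap and the scale. The start-site offsets were taken on chromosomes that have entries in the promoter table.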

Additional observations from a re-analysis of the deposited data

How the results depend on the processing

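The members found at each time did not change at 500 bp, at 5 kb, in the upper 50% of each list by score, or when only summits within 1 kb of a gene end counted. For the 2 distances this was fixed by the positions given above. Summits inside a gene count at any distance, and those of Prpf3 lay 104 bp and 255 bp outside. The nearest T48h summits to Hnrnpk and Prpf39 were 1014 kb and 3965 kb away. With a peak given to the nearest gene only, Sf3b3 (whose T12h peak went to Cog4) and Hnrnpk (to Rmi1) dropped out at T12h, which left 4 of 6, with 4 at T48h as before. The 4 overlapping pairs remained with 50% overlap of both peaks and with summits within 200 bp. The T12h to T48h ratio stayed above 1 for each of the 4 genes on every scale. List genes with a T12h peak fell from 20 to 13 both in the upper 50% by score and with the nearest gene only, and without the 6 members, a choice made after the data were seen, from 14 to 7 and 9. The background share became 2.48% at T12h and 1.03% at T48h over all annotated genes, and 2.62% and 1.07% in the upper 50% by score. At T48h it was 1.06% when only summits near a gene end counted. By construction, the score limit leaves fewer peaks, the nearest-gene setting allows 1 gene per peak, and all annotated genes make a larger denominator. Requiring a summit near a gene end also took the background at T12h to 2.93%, below the interval of the list genes other than the 6 (3.49 to 10.8), and likewise at T48h (1.10 to 6.38). No paired analysis was possible because there was 1 library in each group. Hnrnpk and Prpf39 had the fewest tags of the 6 genes in their T12h peaks, 33 and 31, against a median of 36 over all T12h peaks. Whether depth bears on their missing T48h calls was not tested.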
